A study of Cavia porcellus with 10 samples.

Results

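The genes described here are the prostanoid receptors and the prostaglandin transporters of the guinea pig cervix. They were chosen by name from a list of 10, of which 8 are receptors and 2 are transporters. Of the 25028 genes in the deposited table, 8 carry a name on the list. These are 6 receptors (PTGER1, PTGER2, PTGFR, PTGIR, PTGDR and TBXA2R) and both transporters (SLCO2A1 and ABCC4). PTGER3 and PTGER4 have no row under that name and were not analysed here. All 8 genes passed the filter on low values, a mean of at least 1 TPM (transcript abundance scaled by length and library size) over the 10 animals, which does not look at the stage.

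The animals were Hartley guinea pigs from a commercial supplier, and RNA was taken from the vaginal portion of the cervix. 3 females were non-pregnant and sampled at entry into estrus (NP), 3 were in mid-pregnancy (MT, 43.6 ± 0.5 days) and 4 were in late pregnancy but not in labor (LT, 65.2 ± 1.2 days). The pregnant animals came with uncertain dates, so that gestation age was estimated from the size of the fetuses. No animal carried a transgene or received a treatment, and the 3 stages of the reproductive cycle are the only groups.

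Prostanoids are short-lived lipid signals made from arachidonic acid, and they act near the cell that releases them. Each binds its own receptor, named by the prostaglandin it prefers: PGE2 binds the EP receptors (PTGER genes), PGF2α binds FP (PTGFR), prostacyclin binds IP (PTGIR), PGD2 binds DP1 (PTGDR) and thromboxane binds TP (TBXA2R). EP2, DP1 and IP couple to Gs and raise cyclic AMP, which relaxes smooth muscle, whereas EP1, FP and TP raise calcium, which contracts it. SLCO2A1 encodes the prostaglandin transporter that carries prostaglandins into cells before they are broken down, and ABCC4 (MRP4) is an ATP-driven pump that exports them and also exports cyclic nucleotides. In the cervix, prostaglandins are known for their part in ripening, and PGE2 and its analogs are used to induce it.

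Between 18730665 and 27881572 reads were counted on genes per animal, and no 2 animals of a stage agreed within sampling noise. Changes were tested with limma on log2(TPM + 1), with Benjamini-Hochberg adjustment over 13421 genes, and a gene is said to rise or fall only at an adjusted P under 0.05. On this scale the difference of stage means is written log2FC, with SE for its standard error. All tested genes had a median log2FC of -0.14 from NP to MT, -0.16 from MT to LT and -0.28 from NP to LT, and single genes stand against these shifts. NP replicate 1 stood apart from the other NP animals: its summed smooth muscle markers (10 genes) reached 32058 TPM against 9107 and 11538, its squamous epithelium markers (6 genes) 4007 TPM against 1301 and 1415, and its leukocyte markers (11 genes) 215 TPM against 381 and 514. Among the LT animals, replicates 3 and 4 had 39199 and 40585 TPM of smooth muscle markers and replicates 1 and 2 had 19813 and 19870 TPM. Genes of female reproductive tract identity were present throughout, with a sum from 183 to 607 TPM over ESR1, PGR, HOXA11, HOXA13 and PAX8. In whole tissue, fewer cells of a type and less RNA per cell cannot be told apart.

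From NP to MT, PTGDR and SLCO2A1 rose and PTGER1 and ABCC4 fell. These are 4 of the 8 genes, where 18.0% of all tested genes passed the same test, 6.07% higher and 11.9% lower. The animals of the 2 stages did not overlap for 5 of the 8 genes, against 34.4% of all genes. With edgeR on the read counts 3 of the 8 passed, against 17.3%. From MT to LT, PTGDR fell and no other gene passed. This is 1 of 8, below the 28.3% of all genes (6.53% higher and 21.8% lower), and it was also 1 of 8 with edgeR, against 28.1%. PTGDR was also the 1 gene without overlap between MT and LT, against 45.5% of all genes.

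From NP to LT, PTGER2 and PTGFR rose and PTGER1, TBXA2R and ABCC4 fell. The 5 of 8 genes stand beside 51.9% of all tested genes, so that the number by itself is not a result about the receptors and transporters. Of all genes 10.8% rose and 41.1% fell, a split that turned to nearly even after median-ratio scaling of the animals (3233 higher and 3246 lower). With edgeR 5 of 8 passed, against 48.0%, but TBXA2R was replaced by SLCO2A1. The animals did not overlap for 4 of 8 genes, against 51.6%. In the exact permutation test of NP against LT, on square-root TPM, P was 0.0286 for PTGER1, PTGFR and ABCC4. It was 0.0571 for PTGER2 and TBXA2R. Over the 3 stages, 7 of 8 genes passed the moderated F test, all but PTGIR, against 53.9% of all genes. The median log2FC of the 8 genes was 0.38 from NP to MT, -0.17 from MT to LT and 0.05 from NP to LT. NP to LT shares its animals with both other comparisons.

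**Figure D1:**
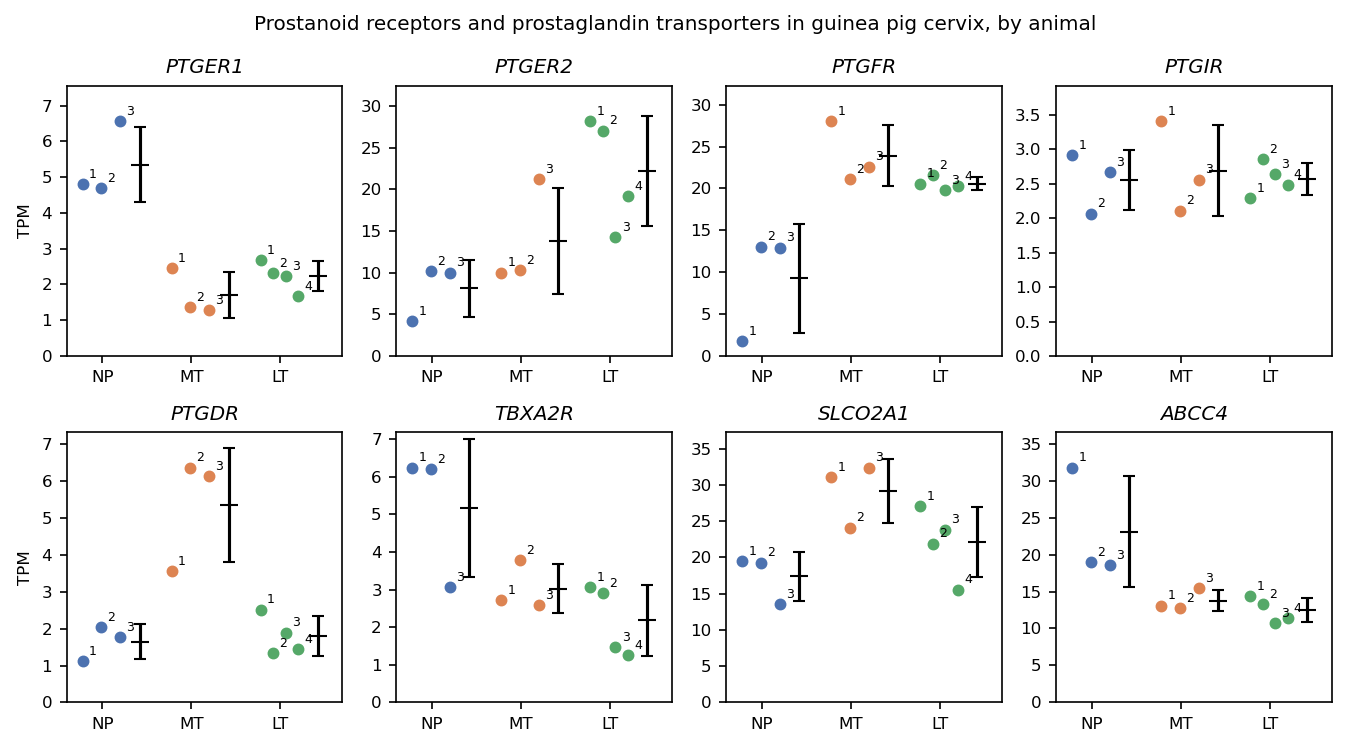
TPM of the 6 receptors and 2 transporters in each animal (vertical axis, TPM, own scale for each gene and starting at 0) by stage. Points are animals, numbered by replicate, and bars show the mean ± SD of each stage. PTGER1 lies above 4 TPM in the NP animals alone, and PTGDR lies above 3 TPM in the MT animals alone.

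The 2 PGE2 receptors moved in opposite directions from NP to LT, in the main test and in each of the 21 alternative settings. PTGER1 (ENSCPOG00000025763), the calcium-coupled receptor EP1, had 4.79, 4.69 and 6.56 TPM in the NP animals, 2.44, 1.37 and 1.28 TPM in the MT animals and 2.69, 2.31, 2.23 and 1.68 TPM in the LT animals. Each NP animal lay above each pregnant animal, and MT and LT overlapped. Means are given ± SD over 3 NP, 3 MT and 4 LT animals here and for the genes that follow. The mean fell from 5.35 ± 1.05 (NP) to 1.70 ± 0.650 TPM (MT), with a log2FC of -1.25 (SE 0.22, adjusted P = 0.00492), and was 2.22 ± 0.416 TPM in LT, which is -0.97 against NP (SE 0.20, adjusted P = 0.00304). From MT to LT the difference of 0.27 did not pass (adjusted P = 0.323). The exact permutation test of the F statistic over the 3 stages, on square-root TPM, gave P = 0.00381. With edgeR, the adjusted P was 0.00761 from NP to MT and 0.0129 from NP to LT. PTGER1 rested on 26 to 143 reads per animal, and at 26 reads the counting error alone is 19.6%.

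PTGER2 (ENSCPOG00000003182), the Gs-coupled receptor EP2, had 4.19, 10.2 and 9.98 TPM in NP, 9.997, 10.3 and 21.2 TPM in MT and 28.2, 27.0, 14.3 and 19.2 TPM in LT. NP and MT overlapped, as did MT and LT, and each LT animal lay above each NP animal. The means were 8.11 ± 3.40 (NP), 13.8 ± 6.38 (MT) and 22.2 ± 6.61 TPM (LT). The rise from NP to LT had a log2FC of 1.38 (SE 0.35, adjusted P = 0.00911; edgeR adjusted P = 0.00412). Neither step passed by itself, with 0.70 from NP to MT (adjusted P = 0.217) and 0.68 from MT to LT (adjusted P = 0.172). Permuted exactly over the 3 stages, the F statistic gave P = 0.0395, and this was lost in 5 of the 10 exact tests that left out 1 animal, those without any 1 NP animal, LT replicate 1 or LT replicate 2 (P from 0.05 to 0.103). Without NP replicate 1 the change from NP to LT was 1.02 (adjusted P = 0.0262). The 2 LT animals with the lower smooth muscle marker sums, replicates 1 and 2, had the higher PTGER2 values. NP replicate 1 had the highest sum and the lowest PTGER2 value of the NP animals. MT replicate 1 had the lowest sum and also the lowest PTGER2 value of the MT animals. The part of the muscle share in the PTGER2 values was not tested.

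The ratio of PTGER2 to PTGER1, both in TPM of the same animal, ranged from 0.874 to 2.17 in NP, from 4.09 to 16.6 in MT and from 6.40 to 11.7 in LT. No pregnant animal reached down to the NP range. This ratio is a description of the same values and was not tested.

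PTGFR (ENSCPOG00000010725), the PGF2α receptor, was the most abundant receptor in NP and in MT by its mean. It had 1.79, 13.1 and 12.9 TPM in NP, 28.0, 21.1 and 22.6 TPM in MT and 20.6, 21.6, 19.8 and 20.3 TPM in LT. NP replicate 1 was far below the other NP animals, all NP animals lay below all pregnant animals, and the 4 LT animals were within 1.79 TPM of each other. The means were 9.26 ± 6.47 (NP), 23.9 ± 3.65 (MT) and 20.6 ± 0.755 TPM (LT). PTGFR rose from NP to LT by 1.40 on the log2 scale (SE 0.47, adjusted P = 0.0305; edgeR adjusted P = 0.0246), and the difference of 1.60 from NP to MT missed the threshold (SE 0.50, adjusted P = 0.0537; edgeR adjusted P = 0.0573). From MT to LT the difference was -0.20 (adjusted P = 0.781, 95% interval from -1.25 to 0.85). The exact permutation test over the 3 stages gave P = 0.000952, but P = 0.0571 without MT replicate 1 and P = 0.0254 without MT replicate 3.

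NP replicate 1 had the lowest value of all animals, and the PTGFR changes were also computed without it. The NP mean was then 12.99 TPM, and log2FC for MT against NP was 0.82 (adjusted P = 0.00254) and for LT against NP 0.63 (adjusted P = 0.00149). The direction was kept with a smaller size and a smaller P. With all animals, the NP to MT difference passed after median-ratio scaling (adjusted P = 0.0332) and in DESeq2 (adjusted P = 0.0102). The NP to LT change lost its call when any 1 of the 4 LT animals was left out, with adjusted P from 0.0537 to 0.0607, and when the fit held only these 2 stages (adjusted P = 0.0579). The high smooth muscle and squamous epithelium marker sums of NP replicate 1 are given above, and their part in its PTGFR value was not tested.

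PTGDR (ENSCPOG00000006861), the PGD2 receptor DP1, was the 1 receptor that both rose from NP to MT and fell from MT to LT. It had 1.12, 2.04 and 1.77 TPM in NP, 3.57, 6.37 and 6.13 TPM in MT and 2.52, 1.34, 1.89 and 1.45 TPM in LT. The MT animals lay above all others, and NP and LT overlapped. The mean rose from 1.64 ± 0.473 (NP) to 5.36 ± 1.55 TPM (MT), with a log2FC of 1.25 (SE 0.25, adjusted P = 0.00907). It then fell to 1.80 ± 0.535 TPM in LT, with a log2FC of -1.17 (SE 0.23, adjusted P = 0.00707). NP and LT differed by 0.08 (adjusted P = 0.790, 95% interval from -0.44 to 0.60). Over the 3 stages the exact permutation test gave P = 0.0119, and from MT to LT the exact pairwise test gave P = 0.0286, the smallest that 3 against 4 animals allow. With edgeR the adjusted P was 0.00577 from NP to MT and 0.00943 from MT to LT. PTGDR rested on 27 to 144 reads per animal. It kept both calls under each of the 21 alternative settings, with an adjusted P of at most 0.047.

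TBXA2R (ENSCPOG00000023595), the thromboxane receptor, had 6.24, 6.21 and 3.06 TPM in NP, 2.72, 3.77 and 2.58 TPM in MT and 3.07, 2.91, 1.47 and 1.26 TPM in LT. NP replicate 3 lay within the range of the MT animals, and the stages overlapped in each comparison. Within LT, replicates 3 and 4, which had the higher smooth muscle marker sums, had the lower TBXA2R values. In NP and in MT the order was otherwise. The animals with the highest sum there, NP replicate 1 and MT replicate 2, had the highest TBXA2R value of their stage. The part of the muscle share in the TBXA2R values was not tested. The means were 5.17 ± 1.83 (NP), 3.02 ± 0.652 (MT) and 2.18 ± 0.945 TPM (LT). The fall from NP to LT was -0.96 (SE 0.29, adjusted P = 0.0182), and it was -0.67 relative to the median of all genes. The call was lost in edgeR (adjusted P = 0.0593), after median-ratio scaling (-0.73, adjusted P = 0.0599), without NP replicate 1 (-0.82, adjusted P = 0.0516) and without NP replicate 2 (-0.82, adjusted P = 0.0741). The difference was -0.58 from NP to MT (adjusted P = 0.207) and -0.38 from MT to LT (adjusted P = 0.337). Permuted exactly over the 3 stages, the F statistic gave P = 0.0390, and this was lost in 9 of the 10 exact tests that left out 1 animal (P from 0.0524 to 0.144), all but the one without NP replicate 3. TBXA2R rested on 27 to 129 reads.

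Platelets carry TP and mast cells make PGD2, and the markers of these cells fell in the same comparison. Of 6 mast cell and platelet markers tested, 4 fell from NP to MT, 3 from MT to LT and 6 from NP to LT, with a sum from 653 to 733 TPM in NP, from 132 to 213 TPM in MT and from 123 to 504 TPM in LT. Of all tested genes 11.9%, 21.8% and 41.1% fell in these comparisons. After median-ratio scaling 3 of the 6 markers fell from NP to MT, 2 fell and 1 rose from MT to LT, and 5 fell from NP to LT. PPBP alone had means of 602 (NP), 101 (MT) and 270 TPM (LT) and thus carries most of this sum. The platelet marker GP9 was below 1 TPM in the mean over all animals and PF4 has no row under that name. All 8 endothelial markers tested also fell from NP to LT, and 7 of them from MT to LT (8 and 5 after median-ratio scaling), with sums between 159 and 218 TPM in NP, between 117 and 167 TPM in MT and between 61.8 and 101 TPM in LT. Their part in the TBXA2R values was not tested.

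PTGIR (ENSCPOG00000001613), the prostacyclin receptor, had 2.91, 2.07 and 2.67 TPM in NP, 3.41, 2.11 and 2.56 TPM in MT and 2.29, 2.86, 2.64 and 2.49 TPM in LT. The stages overlapped, and the means were 2.55 ± 0.436, 2.69 ± 0.660 and 2.57 ± 0.238 TPM. The difference from NP to LT was 0.01 (adjusted P = 0.956) with a 95% interval from -0.36 to 0.39 on the log2 scale. The exact permutation test over the 3 stages gave P = 0.944. PTGIR had from 40 to 84 reads per animal, and the missed threshold does not show that its level was the same in the 3 stages.

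**Figure D2:**
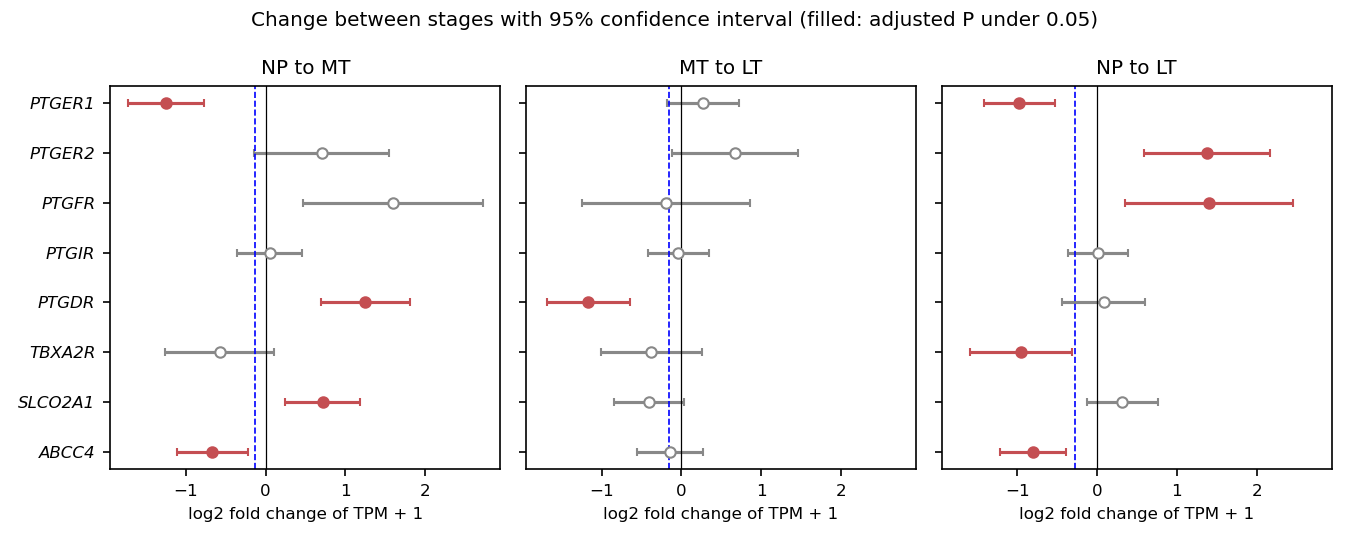
Log2 fold change of each gene on the log2(TPM + 1) scale (horizontal axis) from NP to MT, MT to LT and NP to LT. Points are limma estimates, bars are 95% intervals, and the dashed line is the median of all 13421 tested genes. PTGER1 and ABCC4 lie to the left of the line and PTGER2 and PTGFR to the right in NP to LT, and PTGDR changes side between NP to MT and MT to LT.

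The 2 transporters moved in opposite directions from NP to MT. SLCO2A1 (ENSCPOG00000004532), the uptake carrier, had 19.4, 19.3 and 13.5 TPM in NP, 31.1, 24.1 and 32.4 TPM in MT and 27.1, 21.9, 23.8 and 15.5 TPM in LT. All MT animals lay above all NP animals, and LT overlapped with both. The mean rose from 17.4 ± 3.37 (NP) to 29.2 ± 4.45 TPM (MT), with a log2FC of 0.72 (SE 0.21, adjusted P = 0.0417; edgeR adjusted P = 0.0301). It was 22.1 ± 4.86 TPM in LT, which is -0.40 against MT (adjusted P = 0.148) and 0.32 against NP (adjusted P = 0.200). With edgeR, the NP to LT difference was 0.63 and passed (adjusted P = 0.0348). Over the 3 stages the exact permutation test gave P = 0.0595, and between 0.0143 and 0.0405 without MT replicate 2, LT replicate 1 or LT replicate 4. The rise from NP to MT lost its call without NP replicate 2 or 3, MT replicate 1 or 3, or LT replicate 2 or 3, with adjusted P from 0.0583 to 0.140 and log2 fold changes from 0.56 to 0.80.

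ABCC4 (ENSCPOG00000015119), the exporter, had 31.7, 18.9 and 18.6 TPM in NP, 13.1, 12.8 and 15.4 TPM in MT and 14.4, 13.3, 10.8 and 11.4 TPM in LT. NP replicate 1 was the highest, each NP animal lay above each pregnant animal, and MT and LT overlapped. The mean fell from 23.1 ± 7.50 (NP) to 13.8 ± 1.44 TPM (MT) (log2FC -0.67, SE 0.20, adjusted P = 0.0437) and was 12.5 ± 1.65 TPM in LT (-0.80 against NP, SE 0.19, adjusted P = 0.00534). The first of these 2 calls was lost in 17 of the 21 alternative settings, among them edgeR (adjusted P = 0.0989) and the removal of any 1 animal other than NP replicates 1 and 3 (adjusted P from 0.0518 to 0.115). The second held in 19 of them, edgeR included (adjusted P = 0.0449), and was lost after median-ratio scaling (-0.52, adjusted P = 0.0730) and in edgeR without a filter (-0.57, adjusted P = 0.0692). Without NP replicate 1 the NP mean was 18.8 TPM, and the changes were -0.42 (adjusted P = 0.0441) and -0.56 (adjusted P = 0.00536). Permuted exactly over the 3 stages, the F statistic gave P = 0.00524. From MT to LT the difference was -0.14 (adjusted P = 0.604), and its sign turned under other scalings.

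SLCO2A1 had 0.612, 1.02 and 0.727 times the TPM of ABCC4 in the NP animals, 2.37, 1.88 and 2.10 times in the MT animals and 1.89, 1.65, 2.21 and 1.36 times in the LT animals. The exporter was thus the more abundant transcript in NP replicates 1 and 3, and the uptake carrier in every pregnant animal. As a ratio within an animal it does not depend on the scaling between animals. It was computed from values already described and was not tested.

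**Figure D3:**
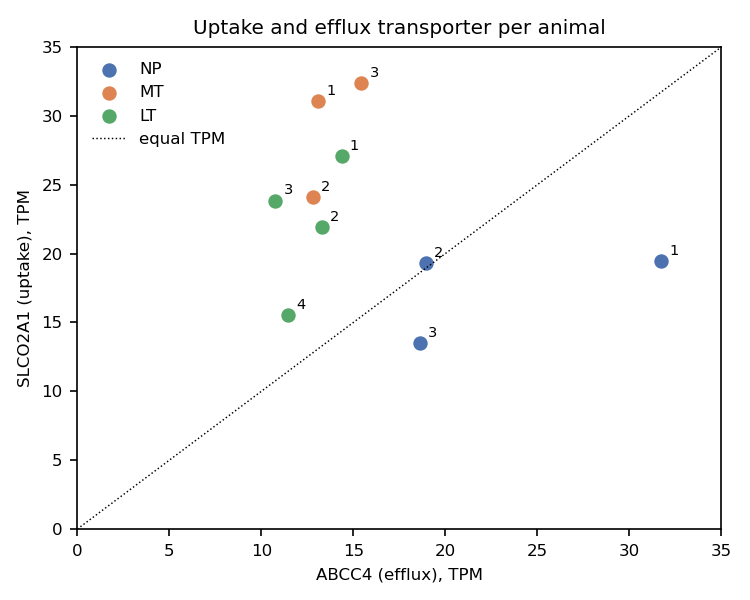
SLCO2A1 (vertical axis, TPM) against ABCC4 (horizontal axis, TPM) in each of the 10 animals, coloured by stage, with the line of equal TPM. The pregnant animals lie above the line, with SLCO2A1 from 1.36 to 2.37 times ABCC4, and of the NP animals 2 lie below it and 1 just above it, from 0.612 to 1.02 times.

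The receptors together had between 21.1 and 38.2 TPM in NP, between 45.0 and 56.3 TPM in MT and between 42.3 and 59.3 TPM in LT, and PTGFR and PTGER2 made up most of the sum in pregnancy. PTGFR had on average 25.9% of the receptor TPM of an animal in NP, 47.6% in MT and 40.7% in LT. PTGER2 had 24.5%, 26.8% and 42.3%. PTGER1 went from 17.6% in NP to 3.39% in MT and 4.35% in LT, and TBXA2R from 18.0% to 6.13% and 4.10%. PTGDR had 5.15%, 10.7% and 3.54%, and PTGIR 8.82%, 5.34% and 5.10%. The Gs-coupled receptors PTGER2, PTGIR and PTGDR together had 37.3% to 39.1% in the NP animals, 33.8% to 53.0% in the MT animals and 44.4% to 55.6% in the LT animals. Each LT animal was above each NP animal in this share, and MT spanned both. The shares leave out PTGER3 and PTGER4 and describe transcripts, not receptor protein.

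**Figure D4:**
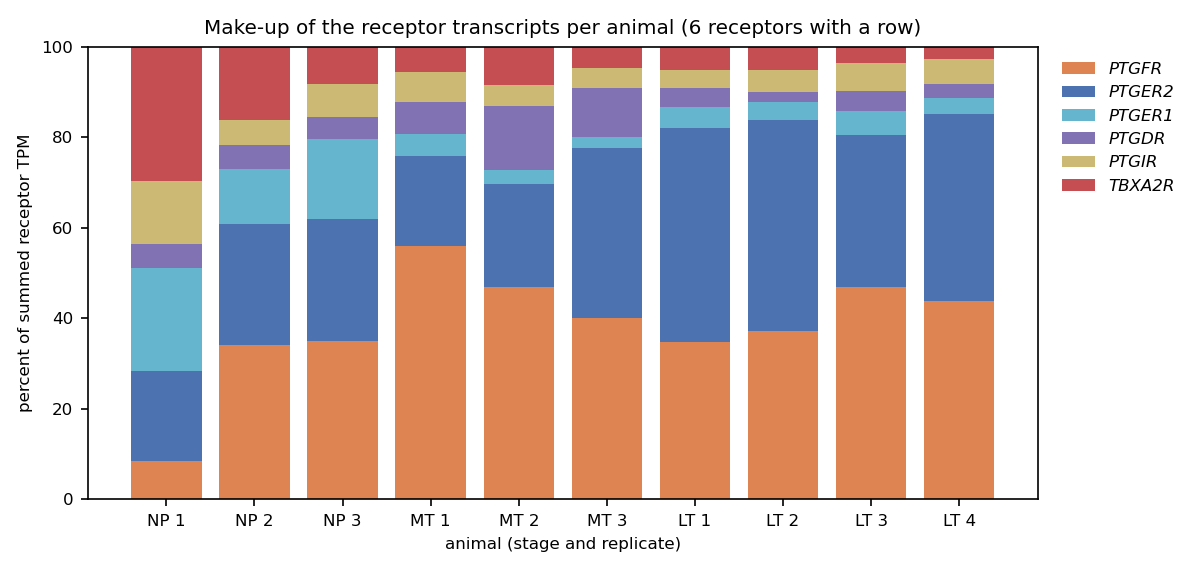
Share of each receptor in the summed TPM of the 6 receptors (vertical axis, percent) for each animal (horizontal axis, by stage and replicate). PTGER1 takes a larger share in each NP animal than in any pregnant animal, and PTGFR and PTGER2 together take the largest part of each bar in the pregnant animals.

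By mean TPM, a level per transcript length, the order changed with the stage. In NP it was ABCC4, SLCO2A1, PTGFR, PTGER2, PTGER1, TBXA2R, PTGIR and PTGDR, and the neighbours that did not overlap were SLCO2A1 and PTGFR, TBXA2R and PTGIR, and PTGIR and PTGDR. In MT it was SLCO2A1, PTGFR, PTGER2, ABCC4, PTGDR, TBXA2R, PTGIR and PTGER1, and only ABCC4 and PTGDR were apart. In LT it was PTGER2, SLCO2A1, PTGFR, ABCC4, PTGIR, PTGER1, TBXA2R and PTGDR, and the gaps were between PTGFR and ABCC4 and between ABCC4 and PTGIR. All other neighbours overlapped between animals. Against all tested genes the levels were middling to low, from the percentile 52.3 (SLCO2A1) over 44.8 (PTGFR), 41.2 (ABCC4) and 40.0 (PTGER2) down to 11.4 (TBXA2R), 10.3 (PTGER1), 9.52 (PTGDR) and 8.64 (PTGIR). At 3 TPM, taken here as an operational limit of expression, PTGER1 was above it in 3 NP animals and in 0 MT and 0 LT animals, and PTGDR in 0 NP, 3 MT and 0 LT animals. TBXA2R was above it in 3 NP, 1 MT and 1 LT animals.

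Upstream of the receptors, 11 of 14 listed genes of prostanoid release and synthesis were tested. From NP to MT 1 rose and 2 fell, from MT to LT 4 rose and 1 fell, and from NP to LT 2 rose and 0 fell. The list's median log2FC was -0.20, 0.21 and -0.05 in these comparisons, beside -0.14, -0.16 and -0.28 for all tested genes. After median-ratio scaling 6 rose and 0 fell from MT to LT, and 5 rose and 0 fell from NP to LT. PLA2G10, a secreted phospholipase that releases arachidonic acid, went from 0.679 ± 0.054 (NP) to 201 ± 185 TPM (MT) (log2FC 6.53, adjusted P = 0.000272). In LT it had 395 ± 170 TPM. The animals of MT and LT overlapped, and the step between them did not pass (1.21, adjusted P = 0.126). PTGES2, a PGE synthase, rose from 41.4 ± 2.51 (NP) to 57.9 ± 3.45 TPM (LT) (0.47, adjusted P = 0.00307), and PTGES3, another one, had 234, 203 and 224 TPM and passed in no comparison. PTGDS, a PGD2 synthase, fell from 232 ± 98.8 (MT) to 42.1 ± 46.4 TPM (LT) (-3.16, adjusted P = 0.0423) with a wide spread between animals, and this call was lost after median-ratio scaling.

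The other genes of this list that passed were named after their values were seen. The inducible PGE synthase PTGES fell from 6.75 to 2.59 TPM from NP to MT (adjusted P = 0.00645) and rose to 5.92 TPM in LT (adjusted P = 0.00672). PLA2G4A, the cytosolic phospholipase A2, did likewise with 15.2, 7.85 and 15.8 TPM (adjusted P = 0.00716 and 0.00373). HPGDS, the other PGD2 synthase, rose from 11.4 to 43.7 TPM from MT to LT (1.74, adjusted P = 0.0101), opposite to PTGDS. PTGIS, the prostacyclin synthase, rose from 11.0 to 38.2 TPM in the same step (1.75, adjusted P = 0.0195), where its receptor PTGIR did not pass. PTGS1 and PTGS2 have no row under that name and were not analysed here.

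Of 5 genes of prostaglandin breakdown, 3 were tested, with medians of -0.26 (NP to MT), -0.20 (MT to LT) and -0.46 (NP to LT). PTGR1, which reduces inactivated prostaglandins, fell from 37.1 ± 1.03 (NP) to 14.2 ± 2.84 TPM (MT) (-1.35, adjusted P = 0.000571) and rose to 21.9 ± 2.02 TPM in LT (0.61, adjusted P = 0.00958). PTGR3 instead fell from MT to LT, from 52.7 to 40.4 TPM (-0.37, adjusted P = 0.0146). All 3 fell from NP to LT, among them CBR1 from 11.2 to 7.81 TPM (-0.46, adjusted P = 0.0374) and PTGR3 from 52.5 to 40.4 TPM (-0.37, adjusted P = 0.00735), and after median-ratio scaling 1 of the 3 did. Of all tested genes 41.1% fell in this comparison, with a median of -0.28. HPGD has no row under that name.

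The relatives of the transporters were tested in part, with 4 of 10 other organic anion carriers and 4 of 10 other ABCC pumps. Their medians were 0.63 and 0.28 from NP to MT, -0.02 and -0.36 from MT to LT, and 0.93 and 0.19 from NP to LT. From NP to MT 1 carrier rose, SLCO1A2 from 1.74 ± 1.19 to 15.3 ± 4.23 TPM (2.65, adjusted P = 0.00978). From NP to LT 3 carriers rose and 0 fell, with SLCO4A1 going from 11.2 ± 6.17 to 28.5 ± 5.11 TPM (1.38, adjusted P = 0.00886) and SLCO3A1 from 19.6 to 28.1 TPM (0.48, adjusted P = 0.0344), while SLCO2B1 had 6.70 and 9.02 TPM (adjusted P = 0.136). Among the pumps, ABCC3 rose from 8.27 to 22.9 TPM from NP to MT (1.36, adjusted P = 0.00432), in the direction opposite to ABCC4. From NP to LT 2 pumps rose, ABCC3 and ABCC5 (12.6 to 27.5 TPM, adjusted P = 0.0220), and 2 fell, ABCC1 (12.7 to 7.97 TPM, adjusted P = 0.00531) and ABCC10 (7.36 to 3.86 TPM, adjusted P = 0.00557). Among all tested genes 6.07% rose from NP to MT, and 10.8% rose and 41.1% fell from NP to LT. After median-ratio scaling all 4 carriers rose from NP to LT, SLCO2B1 among them, and of the pumps again 2 rose and 2 fell.

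Downstream of the receptors, the transcript of the Gs subunit, GNAS, had 318, 303 and 305 TPM and that of Gq, GNAQ, had 72.3, 75.0 and 74.9 TPM, and neither passed in any comparison. GNAI1, an inhibitory subunit, rose from 124 ± 10.1 (NP) to 232 ± 23.3 TPM (MT) (0.90, adjusted P = 0.00116), and GNA12, a subunit of the G12 family, rose from 56.5 to 75.0 TPM (0.40, adjusted P = 0.0254) and fell to 57.3 TPM in LT (-0.38, adjusted P = 0.0175). Of 7 G alpha genes tested, 2 rose from NP to MT, 2 fell from MT to LT, and 1 rose and 2 fell from NP to LT, with medians of 0.04, -0.10 and 0.02. Among all tested genes 6.07% rose from NP to MT, 21.8% fell from MT to LT, and 10.8% rose and 41.1% fell from NP to LT. After median-ratio scaling of the animals, 0 fell from MT to LT, and 3 rose and 0 fell from NP to LT.

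In the cyclic AMP arm 17 of 23 listed genes were tested. From NP to MT 2 rose and 1 fell, from MT to LT 1 rose and 7 fell, and from NP to LT 2 rose and 7 fell. Of all tested genes 21.8% fell from MT to LT and 41.1% from NP to LT, and the second share is near that of the list. The list's median was -0.003 from NP to MT, -0.33 from MT to LT, where that of all genes was -0.16, and -0.45 from NP to LT, where it was -0.28. After median-ratio scaling 1 rose and 4 fell from MT to LT, and 5 rose and 5 fell from NP to LT. The kinase subunits of highest level did not pass in any comparison, with PRKAR1A at 265, 269 and 253 TPM, PRKAR2B at 83.3, 85.5 and 85.4 TPM, PRKAR2A at 64.4, 62.6 and 57.4 TPM and PRKACB at 34.3, 44.0 and 37.9 TPM.

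On the calcium side, 11 genes of phospholipase C beta, the inositol trisphosphate receptors and protein kinase C were tested, a choice by gene family made after values were seen. From NP to MT 1 rose and 0 fell, from MT to LT 0 rose and 4 fell, and from NP to LT 1 rose and 5 fell, with medians of -0.13, -0.55 and -0.30, where 21.8% and 41.1% of all tested genes fell in the last 2 of these comparisons. After median-ratio scaling 2 fell from MT to LT, and 1 rose and 3 fell from NP to LT. PRKCD, a protein kinase C, rose from 62.9 ± 4.25 (NP) to 105 ± 21.5 TPM (MT) (0.72, adjusted P = 0.0101) and was higher in LT than in NP (0.48, adjusted P = 0.0149). The genes that fell from MT to LT were PLCB1, ITPR1, ITPR2 and PRKCE, and these and PLCB2 fell from NP to LT.

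Of 8 genes that dampen receptor signaling, 1 fell from NP to MT, 1 rose from MT to LT, and 1 rose and 4 fell from NP to LT, with medians of -0.37, -0.15 and -0.53, where 10.8% of all tested genes rose and 41.1% fell from NP to LT. The receptor kinase GRK5 rose from 52.8 ± 4.44 (MT) to 74.2 ± 5.39 TPM (LT) (0.48, adjusted P = 0.0209), and GRK2 fell from 40.4 (NP) to 34.3 TPM (LT) (-0.23, adjusted P = 0.0489), a smaller difference than the median of -0.28 over all genes. RGS2, which shortens Gq signals, fell from 214 ± 12.2 (NP) to 152 ± 28.1 TPM (LT) (-0.51, adjusted P = 0.0136), and RGS5 had 286, 169 and 164 TPM and did not pass. After median-ratio scaling 1 rose and 2 fell from NP to LT. PTGFRN, a membrane protein that binds the PGF2α receptor, had 94.3 ± 31.1, 61.5 ± 9.48 and 77.6 ± 11.9 TPM and did not pass (adjusted P = 0.0976, 0.244 and 0.346).

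For the 3 most abundant of the genes described, those of most similar pattern over the 10 animals were picked by Pearson's r of log2(TPM + 1). PTGFR ran closest to PRR15 (r = 0.988), PIGR (r = 0.986), the carrier of antibodies across epithelia, and RASSF6 (r = 0.981). Without NP replicate 1 these were 0.898, 0.892 and 0.861. PIGR had 56.6, 298 and 261 TPM in NP, MT and LT. The glandular epithelium markers moved in the same comparisons, with 4 of 7 higher from NP to MT and 5 of 7 from NP to LT. In these comparisons 6.07% and 10.8% of all tested genes rose. The marker sums were between 760 and 903 TPM in NP, between 1766 and 2536 TPM in MT and between 1683 and 1930 TPM in LT. NP replicate 1 had the highest sum of the NP animals (903 TPM) and the lowest PTGFR value. The part of these markers in the PTGFR values was not tested. SLCO2A1 ran closest to DKK2 (r = 0.956, and 0.955 without NP replicate 1), a secreted Wnt regulator with 47.6, 137 and 71.5 TPM, then to CA4 (r = 0.903) and CTPS2 (r = 0.896). ABCC4 ran closest to IFIH1 (r = 0.978), a sensor of double-stranded RNA, MUC4 (r = 0.963), a membrane mucin of epithelia, and NT5C3 (r = 0.960), and without NP replicate 1 these were 0.934, 0.988 and 0.896. Over all 10 animals, the number of named genes with an r over 0.9 was 123 for PTGFR, 96 for ABCC4 and 2 for SLCO2A1. These genes were not counted again without NP replicate 1, where even the genes named for PTGFR fell below 0.9. The points share stage and library, so these values describe likeness only.

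The remaining marker lists are given by their counts. As background, 6.07% of all tested genes rose and 11.9% fell from NP to MT. The shares were 6.53% and 21.8% from MT to LT, and 10.8% and 41.1% from NP to LT. Among leukocyte markers 0 of 10 passed from NP to MT, 1 rose from MT to LT, and 1 rose and 2 fell from NP to LT. For smooth muscle 0 of 10 passed from NP to MT, 1 rose from MT to LT and 0 passed from NP to LT, for stroma 1 of 5 fell from NP to MT, 1 rose and 2 fell from MT to LT and 2 fell from NP to LT, and for squamous epithelium 2 of 6 fell from NP to MT, 1 rose from MT to LT, and 1 rose and 2 fell from NP to LT. Of the 5 tissue identity genes, 1 rose and 1 fell from NP to MT, 3 fell from MT to LT and 4 fell from NP to LT. Some counts differed after median-ratio scaling. From NP to LT 2 smooth muscle markers rose and 0 fell, and 1 stroma marker rose and 2 fell. In that comparison 1 leukocyte marker rose and 1 fell, and 1 identity gene rose and 4 fell. From MT to LT 2 squamous markers rose, and 1 stroma marker rose and 1 fell. For stroma 0 fell from NP to MT.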

How the data were processed

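RNA of 10 guinea pig cervices was sequenced as single, strand-specific reads of 75 bases. The authors aligned them with TopHat2 to the Ensembl guinea pig genome and counted them per gene with HTSeq (0.5.4p1), and base calls were made with CASAVA (1.8.2), per the submitters' processing notes. The strand setting of the counting is not given in the sources used here. The deposited table holds a read count and a TPM value (scaled for transcript length and library size) per gene and animal, both computed by the authors, and both were used as deposited. 0 columns lacked a sample. Groups follow the labels, and each sample is 1 animal. Between 18730665 and 27881572 reads were counted on genes per animal, and errors of single counts cover counting only.

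TPM values were tested with limma 3.58.1 (trend) on log2(TPM + 1), with stage as the only term in 1 fit over 10 animals and Benjamini-Hochberg adjustment over 13421 genes, those whose mean over all animals reached 1 TPM. The scale understates changes of low genes. Two-sided exact permutation tests were run on square-root TPM; they cannot give a P below 0.1 for 3 against 3 animals, 0.0286 for 3 against 4 and 0.000476 for 3 stages. Alternatives were edgeR 4.0.16 (quasi-likelihood) and DESeq2 1.42.0 on the counts, median-ratio scaling of the TPM values (each animal divided by its median ratio to the geometric mean of the genes), other pseudocounts and filters, 2 stages only, each animal left out and a replicate block (R 4.3.3). In simulated data of 13421 genes, 100 changes of 2-fold size and 100 with a log2FC of size 2 were planted. Of the 2-fold changes limma found 56% from NP to MT, 67% from MT to LT and 55% from NP to LT. It found 85%, 88% and 90% of the larger ones, and 7.84%, 2.52% and 6.45% of all its calls were false.

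The genes, gene lists and tests were chosen with earlier results of these data known. Named are all 8 receptors and transporters, up to 4 genes of highest mean TPM from each pathway list, and the 3 genes of highest r with each of the 3 most abundant of these. Exceptions are 4 genes of prostanoid synthesis and 5 of the calcium arm, named after their values were seen, and part of the calcium list, which is not reported here. RefSeq names (all 10 listed genes matched) were used for names only, and no sequence is shown.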

Additional observations from a re-analysis of the deposited data

How the results depend on the processing

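Of 501 log2FC values of single genes between 2 stages under alternative settings, 432 kept their direction and their side of the threshold, 39 lost the call, 12 gained it and 18 changed sign. Of 88 alternative values of the exact tests over 3 stages, 70 kept their side of P = 0.05, 15 lost it (9 for TBXA2R, 5 for PTGER2 and 1 for PTGFR) and 3 gained it (SLCO2A1). The calls of PTGER1 and PTGDR from NP to MT, of PTGDR from MT to LT and of PTGER1 and PTGER2 from NP to LT were kept in all 21 settings. From NP to MT, 4 of the 8 genes passed, 2 without a filter, 2 with the 2 stages alone, and 2 to 5 with an animal left out. Over all genes 2410 passed, 1125 with the 2 stages alone, 3195 with DESeq2 and 1140 (without MT replicate 3) to 4294 (without NP replicate 1) with an animal left out. From MT to LT 3800 genes passed, with 1928 (without MT replicate 2) to 5493 (without NP replicate 1). From NP to LT 6968 passed, with 5432 to 8028 with an animal left out. Of the 8 genes 5 passed in this comparison, 4 to 5 with an animal left out and 6 with DESeq2. After median-ratio scaling the split of higher and lower genes went from 815 and 1595 to 1347 and 986 from NP to MT, from 877 and 2923 to 1818 and 1983 from MT to LT, and from 1446 and 5522 to 3233 and 3246 from NP to LT.

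The changes of sign all concern differences that did not pass. From MT to LT the log2FC of PTGIR turned to 0.089 after median-ratio scaling, 0.109 with edgeR (TMM), 0.107 with edgeR (RLE), 0.140 with edgeR without a filter and 0.109 with DESeq2, and that of ABCC4 to 0.0235, 0.0275, 0.0250, 0.0573 and 0.0252 in the same 5 settings. With an animal left out, PTGIR ranged from -0.0858 to 0.166 from NP to MT, from -0.153 to 0.0987 from MT to LT and from -0.0888 to 0.0871 from NP to LT, and PTGDR from -0.0702 to 0.190 from NP to LT. The cause was not tested.

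Replicate numbers do not pair the animals: r of same-numbered animals ranged from -0.28 to 0.24, and the own number was the best match in 6 of 18 checks. With a replicate block 1622 genes passed from NP to MT, 1707 from MT to LT and 5576 from NP to LT, ABCC4 lost its call from NP to MT (adjusted P = 0.0744) and PTGFR from NP to LT (adjusted P = 0.0696).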
